A study of Mus musculus with 6 samples.

Results

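The glucocorticoid receptor gene Nr3c1 and 6 genes linked to its action, Hsd11b1, Tsc22d3, Fkbp5, Errfi1, Sgk1 and Pik3r1, were followed in the livers of mice given an Nfkbiz or a luciferase vector. All probe sets that the platform annotation assigns to exactly 1 of these 7 symbols were taken, which gave 21 of 45037 probe sets and 7 of 18193 genes. The genes were chosen with the contrast between the vectors on these same arrays in view, so their own differences are given as a description, without p-values. C57BL/6 mice had received an intravenous AAV8 vector carrying either luciferase or Nfkbiz, the gene of the nuclear IκB protein IκBζ. After 4 weeks both groups were switched for another 4 weeks to CDAHFD, a high-fat diet that lacks choline, has a defined amino acid content and is used to model nonalcoholic fatty liver disease. Total RNA of perfused liver was read on Affymetrix 3' arrays, 3 arrays per group and 1 per liver sample. The promoter of the vectors, the age and sex of the mice, the hour of sampling and the feeding state are not stated, and livers without vector or diet are not analysed here. Whether the replicates are separate animals is not stated beyond their being separate samples, so p-values measure only the spread between these samples.

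The glucocorticoid receptor is a nuclear receptor that rests in the cytosol with heat shock proteins and immunophilins. Once it binds cortisol or corticosterone it enters the nucleus, where it binds response elements near genes such as Tsc22d3 and Fkbp5 and, in liver, genes of gluconeogenesis and amino acid breakdown. It also restrains inflammatory transcription. In mouse liver the 11β-hydroxysteroid dehydrogenase encoded by Hsd11b1 regenerates active corticosterone from its inert keto form, and circulating corticosterone rises and falls over the day.

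The starts of the response genes are shown first, because the receptor acts on DNA. RefSeq's table of build GRCm38.p6 held 15 start sites for 6 of the 7 genes, all but Nr3c1, and the 250 bases before each were searched on both strands for a common form of the palindromic response element, GNACA and TGTNC spaced by 3 bases of any kind, and for AGAACA, a single arm that overlaps the full form where its letters match. The full form was found before 1 of the 15 starts, at Sgk1, and before 0.387% of all 32851 starts in the table. The single arm was found before 4 of the 15 starts and before 16.1% of all starts. Of these 4 starts 1 was at Tsc22d3 and the rest were at Sgk1, which has 6 of the 15 starts. The other genes had no match. The windows of Tsc22d3, the gene with the largest difference, of Errfi1 and of Sgk1 with its match are printed in the direction of transcription, with matches in capitals.
Sgk1, chr10:21993640-21993889, plus strand: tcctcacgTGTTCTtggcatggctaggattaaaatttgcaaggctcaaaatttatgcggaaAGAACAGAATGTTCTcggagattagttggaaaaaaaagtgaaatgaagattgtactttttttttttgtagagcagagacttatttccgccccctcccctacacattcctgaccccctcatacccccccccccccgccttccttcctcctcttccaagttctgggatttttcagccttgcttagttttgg
Tsc22d3, outermost start, chrX:140600523-140600772, minus strand: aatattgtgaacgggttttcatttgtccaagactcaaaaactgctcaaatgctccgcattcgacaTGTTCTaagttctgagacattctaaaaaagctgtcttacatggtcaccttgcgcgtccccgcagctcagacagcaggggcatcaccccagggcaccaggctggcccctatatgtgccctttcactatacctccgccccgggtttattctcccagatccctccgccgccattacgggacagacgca
Tsc22d3, innermost start, chrX:140542669-140542918, minus strand: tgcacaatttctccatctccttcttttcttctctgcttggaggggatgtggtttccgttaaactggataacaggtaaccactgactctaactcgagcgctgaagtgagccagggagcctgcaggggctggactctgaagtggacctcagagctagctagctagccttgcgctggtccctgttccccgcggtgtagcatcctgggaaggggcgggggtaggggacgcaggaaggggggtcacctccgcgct
Errfi1, outermost start, chr4:150853546-150853795, plus strand: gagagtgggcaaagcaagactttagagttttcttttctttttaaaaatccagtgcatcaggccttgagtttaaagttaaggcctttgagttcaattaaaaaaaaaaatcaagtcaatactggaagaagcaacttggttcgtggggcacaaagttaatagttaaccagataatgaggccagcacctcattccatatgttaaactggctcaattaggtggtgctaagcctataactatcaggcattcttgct
In the Sgk1 window the full form read GAACAGAATGTTC and began 188 bases before the start. Arms lay 189 and 180 bases before the start, at its ends, and another near the 5' end of the window. The outermost Tsc22d3 start had a single arm 185 bases upstream, and the innermost Tsc22d3 and the Errfi1 window had no match to these letters. A match is a description of the letters, not a binding site, and elements farther from a start were not searched.

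The values are MAS5 intensities on a linear scale, and differences are Nfkbiz minus luciferase on the log2 scale with limma's moderated standard error (SE). The vector's own gene checked the labels. Its probe set 1448728_a_at read 221, 229.5 and 179.7 on the luciferase and 4424, 4073 and 2006 on the Nfkbiz arrays. The other Nfkbiz probe sets did not show this. Set 1417483_at read 716, 833 and 959 against 1319, 927 and 881 (0.30 ± 0.19) and the dim 1457404_at read 89.8, 168 and 76.0 against 86.3, 82.8 and 25.2 (-0.89 ± 0.54), both with overlap. Which parts of the vector's transcript these sets cover is not stated in the annotation used. Arrays of one group correlated at r = 0.952 to 0.965 across probe sets and arrays of different groups at 0.949 to 0.958, and the luciferase array numbered 3 was far from the rest on principal component 2 (76.1, the other arrays from -22.8 to -8.47). All 5 measured hepatocyte markers were bright, and their summed intensity was 204728 to 237349 on the luciferase and 210408 to 252830 on the Nfkbiz arrays. The 6 Kupffer cell markers summed to 9842 to 17549 and 19730 to 28828, without overlap, all 6 markers with a positive difference and 0 past limma's threshold over all genes (6 at an unadjusted p under 0.05). Of the 6 stellate cell markers 5 had a negative difference, with a median of -0.54 and 0 past limma's threshold (3 lower at an unadjusted p under 0.05). Summed levels of these stellate (14263 to 24535 and 13657 to 17696) and 5 endothelial cell markers (3582 to 7569 and 6822 to 8507) overlapped, as did those of cholangiocyte (434 to 693 and 324 to 598), B cell (439.7 to 581 and 442 to 669.99) and neutrophil markers (885 to 1347 and 1069 to 2646). The T and NK cell markers did not (977 to 1212 and 1409 to 2754). The granzyme gene Gzma was the 1 marker of 36 tested that passed limma's threshold, with a higher level (1.77 ± 0.28, limma adjusted p = 0.0427). The largest part of the T and NK cell sum was Ccl5, at 604 to 722 and 770 to 1707. The T cell receptor genes Cd3e (-0.67 ± 0.83) and Cd3g (0.39 ± 0.43) overlapped, as did Nkg7 (0.73 ± 0.32). Of the 5 T and NK cell markers 4 had a positive difference. At an unadjusted p under 0.05 in limma 3 of them were higher and 0 lower, where 5.03% of all genes were higher. Of the markers, 0 were at 0 on any array. The part of cell makeup in the differences given here was not tested, and in whole liver fewer cells of a type and less RNA per cell cannot be told apart.

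The receptor's transcript differed little between the groups. On its brightest probe set, 1460303_at, Nr3c1 read 1686, 1681 and 2146 with luciferase and 1743, 1530.1 and 1847 with Nfkbiz. The groups overlapped, at 1838 ± 267 against 1707 ± 162 (SD, n = 3 each), with a log2 difference of -0.10 ± 0.15. A second probe set, 1421867_at, read 1092, 1081 and 1113 against 912, 909.9 and 1059.8, and there every Nfkbiz array lay below every luciferase array by a small margin (-0.19 ± 0.14). The other Nr3c1 probe sets above the intensity filter overlapped, with differences of -0.08 ± 0.23 (1457635_s_at), -0.09 ± 0.21 (1421866_at) and -0.04 ± 0.29 (1453860_s_at). The dim 1431378_at, at 44.9 ± 26.6 against 39.8 ± 16.9, was below the filter. Pairs of these 5 probe sets correlated between -0.55 and 0.94 over the 6 arrays, so not all probe sets of the receptor followed one another from array to array. Leaving out luciferase array 3 turned the difference on 1460303_at to 0.02 and that on 1457635_s_at to 0.11, and leaving out Nfkbiz array 2 turned the latter to 0.11 as well. That on 1453860_s_at ran from -0.33 to 0.18 with single arrays left out.

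Hsd11b1, which sets the supply of active hormone inside the hepatocyte, did not separate the groups either. Its single probe set, 1449038_at, read 17081, 22267 and 18947 on the luciferase and 19953, 22541 and 14170.5 on the Nfkbiz arrays. The means were 19431 ± 2627 and 18888 ± 4286 (SD, n = 3 each), a log2 difference of -0.06 ± 0.18, and both the highest and the lowest value came from an Nfkbiz array. It ran from -0.20 to 0.13 with single arrays left out.

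Tsc22d3, which encodes the glucocorticoid-induced leucine zipper protein GILZ, a mediator of anti-inflammatory hormone action, had the largest difference of the 7 genes. Probe set 1420772_a_at read 6247, 8718 and 7300.2 with luciferase and 1833, 3586 and 2131 with Nfkbiz. The highest Nfkbiz array was far below the lowest luciferase array, and the means were 7421 ± 1240.1 and 2517 ± 938 (SD, n = 3 each). This was a 3.05-fold lower level, a log2 difference of -1.61 ± 0.23. Probe set 1425281_a_at read 3232, 5565 and 2895 against 903, 1965 and 1153, again without overlap and 2.94-fold lower (-1.56 ± 0.30). These probe sets correlated at r = 0.973 over the 6 arrays and at 0.901 once each group's mean was removed.

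The remaining Tsc22d3 probe sets gave smaller differences. The x-type set 1425557_x_at, a class that can also bind other transcripts, read 398, 525 and 699 on the luciferase and 319, 415 and 331 on the Nfkbiz arrays. The groups overlapped there, since Nfkbiz array 2 exceeded luciferase array 1 (-0.58 ± 0.23), and the difference became -0.37 once luciferase array 3 was left out. The dim 1444365_at read 95.6, 62.5 and 54.8 against 60.9, 54.3 and 57.4 (-0.26 ± 0.41), and only -0.03 remained once luciferase array 1 was left out. Which Tsc22d3 isoforms each probe set reads is not stated in the annotation used.

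**Figure D1:**
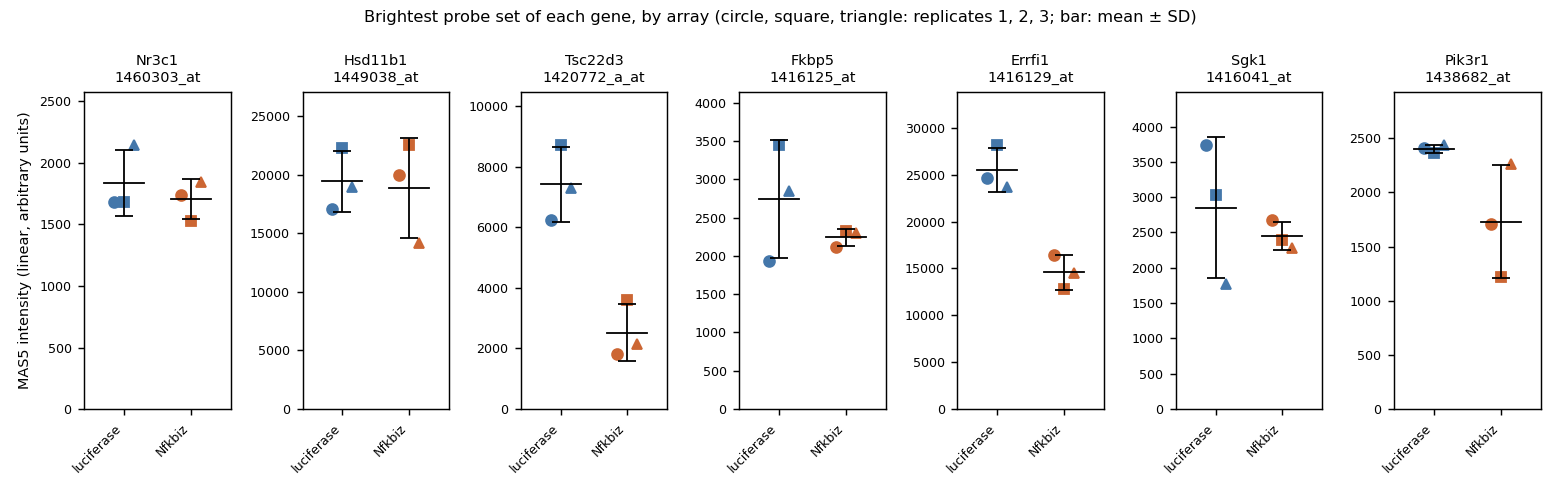
MAS5 intensity (vertical axis, linear, from 0) of the brightest probe set of each of the 7 genes on the 3 luciferase and 3 Nfkbiz arrays, with symbols for the replicates and bars for mean ± SD. The Nfkbiz arrays lie below all luciferase arrays for Tsc22d3 (1833 to 3586 against 6247 to 8718), Errfi1 and, narrowly, Pik3r1, and overlap them for Nr3c1, Hsd11b1, Fkbp5 and Sgk1.

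Fkbp5, the immunophilin that lowers the receptor's affinity for hormone and is itself induced by it, differed less than its luciferase arrays differed among themselves. Its brightest probe set, 1416125_at, read 1929.7, 3448 and 2849 on the luciferase and 2113, 2323 and 2295 on the Nfkbiz arrays. All Nfkbiz arrays lay within the luciferase range, with an SD of 765 for luciferase and 114 for Nfkbiz (-0.25 ± 0.20). The difference became -0.48 with luciferase array 1 left out and -0.07 with luciferase array 2 left out. Probe set 1448231_at read 776, 1853 and 986 against 972, 1114 and 1115 (-0.08 ± 0.27), and followed the brighter one at r = 0.849 over the 6 arrays. Leaving out luciferase array 1 or 2 gave -0.34 or 0.28 there. The last Fkbp5 set, 1447736_at, was among the dimmest 10.4% of probe sets and below the filter, at 27.2, 30.0 and 17.3 against 7.79, 2.58 and 2.54, intensities too low to be read as a level. With the mean of all its probe sets, this dim one included, the gene's difference was -1.01.

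Errfi1, the gene of MIG6, a feedback inhibitor of the EGF receptor, was lower in the Nfkbiz livers on both of its probe sets. The brighter, 1416129_at, read 24650.5, 28172 and 23724 with luciferase and 16486, 12753 and 14517 with Nfkbiz. The groups did not overlap, and the means were 25515 ± 2347 and 14585 ± 1867 (SD, n = 3 each), 1.75-fold lower (-0.81 ± 0.13). On 1419816_s_at the luciferase arrays read 9601, 12720.0 and 6853 and the Nfkbiz arrays 5843, 4359 and 4896, also without overlap (1.89-fold lower, -0.92 ± 0.21). Leaving out any single array kept these differences between -0.90 and -0.72 on the brighter and between -1.15 and -0.70 on the other probe set.

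Sgk1, a hormone- and insulin-regulated kinase gene with a match to the full form in 1 of its 6 windows, overlapped between the groups. Its probe set 1416041_at read 3739, 3037 and 1769 on the luciferase and 2675, 2399 and 2283 on the Nfkbiz arrays. The means were 2848 ± 999 and 2452 ± 202 (SD, n = 3 each), a log2 difference of -0.15 ± 0.24. Luciferase array 3 held the lowest value, and leaving it out gave -0.46. Leaving out luciferase array 1 gave 0.08, array 2 gave -0.07, and Nfkbiz array 3 gave -0.10.

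Pik3r1, the gene of the regulatory subunit p85α of phosphoinositide 3-kinase, was uneven within the Nfkbiz group. On 1438682_at the luciferase arrays were close together at 2406, 2359.8 and 2437, whereas the Nfkbiz arrays read 1711, 1217 and 2262. The groups did not overlap, but the third Nfkbiz array was near the luciferase level (2401 ± 39.0 against 1729.9 ± 523, SD, n = 3 each, -0.52 ± 0.20). The Nfkbiz arrays kept this order on 1425515_at, at 867, 969.8 and 780.2 against 472, 363 and 862, with overlap (-0.72 ± 0.28). Of the dimmer probe sets, 1425514_at read 547, 609.5 and 736 against 621, 275 and 654 (-0.38 ± 0.30) and 1451737_at read 318, 375 and 524 against 310.5, 197 and 300.0 (-0.59 ± 0.25), without overlap on the latter. On all 4 probe sets the second Nfkbiz array was lowest, at -1.26 to -0.98 relative to the luciferase mean, and the third lay between -0.40 and 0.06. Without the second Nfkbiz array the 4 differences ran from -0.45 to 0.03, and without the third from -1.07 to -0.60. The third Nfkbiz array was also the one with the lowest vector signal, 2006 on the Nfkbiz probe set 1448728_a_at, and the part of vector level in the Pik3r1 values was not tested.

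**Figure D2:**
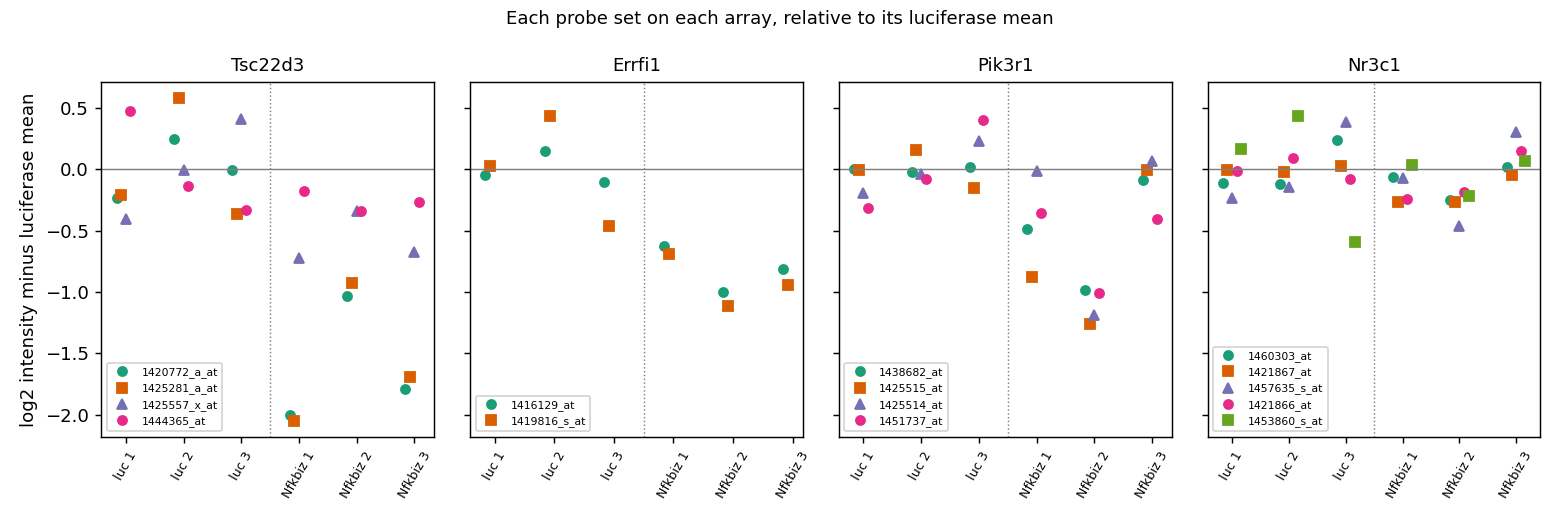
Log2 intensity minus the luciferase mean (vertical axis) of every probe set above the filter on each of the 6 arrays (horizontal axis) for Tsc22d3, Errfi1, Pik3r1 and Nr3c1, with 1 symbol and colour per probe set and the groups split by a dotted line. The second Nfkbiz array is the highest of its group for the bright Tsc22d3 probe sets and the lowest for Errfi1 and Pik3r1.

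The genes with lower values did not share an array order. Among the Nfkbiz arrays Tsc22d3 was highest on array 2, where Errfi1 and Pik3r1 were lowest. Over the 6 arrays the brightest probe sets of Tsc22d3 and Errfi1 correlated at r = 0.823, and at -0.52 once the group means were removed. For Pik3r1 the values were 0.467 and -0.71, and for Fkbp5 0.592 and 0.527. With 6 arrays these are descriptions only.

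Counted together, all 19 member probe sets above the filter had a negative difference, where 53.0% of all 27022 tested did, and their median was -0.26 against -0.02 for all. In limma's fit over all probe sets 0 of the 19 had an adjusted p under 0.05, where 0.0703% of probe sets passed (0.0518% lower and 0.0185% higher). At an unadjusted p under 0.05 in limma 8 were lower and 0 higher (6.47% and 4.14% of all). For 7 of the 19 the groups did not overlap with Nfkbiz lower (9.69% of all, with 7.03% higher), namely both Errfi1 sets and a pair each for Tsc22d3 and Pik3r1 besides 1421867_at of Nr3c1. In the fit over 13312 genes, each read by its brightest probe set, 1 of the 7 genes passed, Tsc22d3, where 0.225% of genes passed (0.158% lower and 0.0676% higher). With 3 of the 7 genes lower without overlap, Tsc22d3, Errfi1 and Pik3r1, 1333 of all 13312 genes were lower without overlap and 1065 higher. Because the genes were chosen on this contrast, these counts are no evidence about them, and the probe sets of a gene are not independent of each other. The Tsc22d3 call was absent without the variance trend, after median centring, with the mean or the most variable probe set per gene, and when luciferase array 2 or 3 or Nfkbiz array 1 or 3 was left out, while the gene's difference stayed between -1.90 and -1.41 when 1 array was left out and was -1.002 with the mean of its probe sets.

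**Figure D3:**
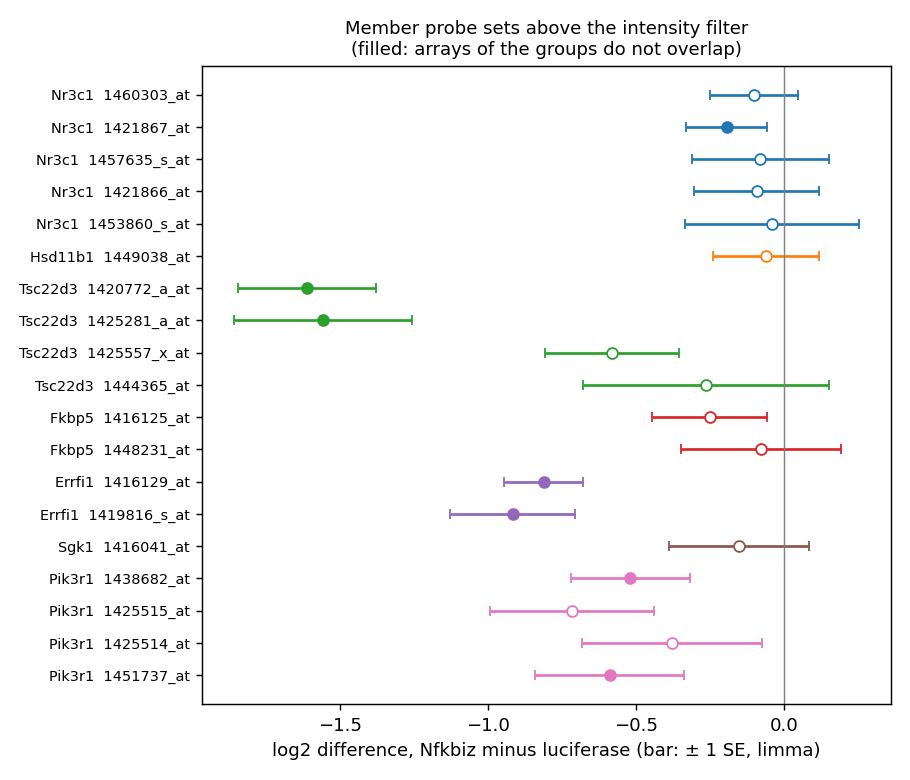
Log2 difference, Nfkbiz minus luciferase (horizontal axis, bars ± 1 SE from limma), of the 19 member probe sets above the intensity filter, coloured by gene. All 19 points are at or left of -0.04, the 2 bright Tsc22d3 probe sets are lowest at -1.61 and -1.56, and filled points mark the 7 probe sets without overlap between the groups.

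Other genes known to be induced by glucocorticoids fell in part. The list of 32 such genes was drawn up with earlier results of these arrays known, several of its members had already been seen to fall, and it is therefore not independent evidence of a direction. Of 31 measured genes 7 fell and 0 rose in limma's fit over all genes, where 0.158% of genes fell, and the list's median was -0.47 against -0.02 for all genes. Those that fell were Lpin1, a phosphatidate phosphatase gene (-2.53 ± 0.26, limma adjusted p = 0.0035), Zbtb16, a zinc finger factor gene (-2.02 ± 0.19, limma adjusted p = 0.00285), and Foxo3, a forkhead factor gene (-1.53 ± 0.21, limma adjusted p = 0.0261). Klf15, which regulates amino acid breakdown (-1.45 ± 0.21, limma adjusted p = 0.0316), the clock gene Per1 (-1.36 ± 0.20, limma adjusted p = 0.0329) and the coactivator gene Ppargc1a (-1.24 ± 0.20, limma adjusted p = 0.0449) fell as well. The seventh was Tat, the tyrosine aminotransferase gene and a classical hepatic receptor target. It read 17883, 23787 and 18712 on the luciferase and 8155, 8069 and 10521 on the Nfkbiz arrays, without overlap (-1.17 ± 0.16, limma adjusted p = 0.0218).

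The list did not move as a block. Of the 31 genes 21 had a negative and 10 a positive difference, and Mt1, a metallothionein gene that glucocorticoids induce, is named after its values were seen as a gene on the other side. It read 8006, 18543 and 17589 on the luciferase and 33023, 20924 and 25026 on the Nfkbiz arrays, with no overlap and without passing (0.91 ± 0.29, limma adjusted p = 0.268). Its sign depended on the probe set, since the difference was -2.21 on its most variable one, which did not pass either (limma adjusted p = 0.498). At an unadjusted p under 0.05 in limma 17 of the 31 genes were lower and 3 higher. Of all 13312 genes 932 were lower and 669 (5.03%) higher. Besides Mt1 the higher genes were Pdk4 (0.73 ± 0.22, without overlap, limma adjusted p = 0.244) and Bcl6 (1.19 ± 0.49, with overlap, limma adjusted p = 0.368). When luciferase array 2 or Nfkbiz array 1 was left out 2 genes of the list passed, with luciferase array 3 left out 3, with Nfkbiz array 3 left out 4, and with luciferase array 1 or Nfkbiz array 2 left out 5. Lpin1 and Zbtb16 passed in all of these, and 0 genes passed without the variance trend. Of all alternatives that gave a value, Tat passed in 12 of 17, Foxo3 in 10 of 16, Klf15 in 9 of 17, Per1 in 5 of 17 and Ppargc1a in 4 of 17. Per1 and Ppargc1a did not pass after quantile or loess normalization or without the intensity filter, and all 7 differences stayed negative throughout. Of 30 start windows for 26 of these genes 1, at Mt1, held the full element form, or 3.33%, and 6.67% held a single arm. Among all 32851 starts the shares were 0.387% and 16.1%.

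Inflammatory genes that glucocorticoids repress mostly had positive differences and none passed. This list and those of partners, supply and signalling below were also chosen with earlier results of these arrays known. Their signs and medians are therefore descriptions, not independent evidence of a direction. Of 15 genes 10 were above the filter, with 9 positive differences, a median of 0.38 and 0 past limma's threshold over all genes (3 higher at an unadjusted p under 0.05). Over all 13312 genes 52.2% of the differences were negative, the median was -0.02 and 5.03% were higher at an unadjusted p under 0.05. The cytokine genes Il1b (0.82 ± 0.33) and Il1a (0.65 ± 0.27) and the chemokine genes Ccl5 (0.66 ± 0.26) and Ccl7 (1.11 ± 0.52) had the smallest p-values, with limma adjusted p-values from 0.346 to 0.433. Ccl5 also counts among the T and NK cell markers. The Kupffer cell markers, which share no gene with this list, summed to 19730 to 28828 on the Nfkbiz against 9842 to 17549 on the luciferase arrays, and their part in these values was not tested.

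The receptor's protein partners had mostly negative differences, and none passed. Of 11 measured chaperones and cochaperones 0 passed limma's threshold over all genes (5 lower and 0 higher at an unadjusted p under 0.05, where 932 of all 13312 genes were lower and 669 higher). Their median was -0.17 against -0.02 for all genes, 9 of the 11 differences were negative, and 5 genes were lower without overlap (1333 of all 13312). The constitutive chaperone gene Hspa8 read 28424, 32615 and 33610 on the luciferase and 22259, 17793 and 20817 on the Nfkbiz arrays, without overlap (-0.64 ± 0.13, limma adjusted p = 0.122). It passed after quantile or loess normalization. The cochaperone genes Dnajb1 (-0.66 ± 0.18) and Dnaja1 (-0.33 ± 0.12) and the immunophilin gene Fkbp4, which promotes transport of the receptor (-0.34 ± 0.14), did not pass. The sign of Fkbp4 was positive with the mean or the most variable of its probe sets, without passing (limma adjusted p = 0.852 and 0.511). Among 16 measured coregulators 0 passed limma's threshold over all genes (3 lower and 0 higher at an unadjusted p under 0.05). Their median was also -0.17, 14 of the 16 differences were negative where 52.2% of all genes' were, and 6 genes were lower without overlap. The smallest p-values belonged to the histone methyltransferase gene Ehmt2 (-0.43 ± 0.13), the coactivator genes Ncoa1 (-0.48 ± 0.18) and Crebbp (-0.41 ± 0.17) and the chromatin remodeller gene Smarca4 (-0.31 ± 0.18).

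Hormone supply and the signalling partners of the response genes gave no calls either, with medians nearer to the -0.02 of all genes. Of 7 tested genes listed for glucocorticoid supply and clearance 0 passed limma's threshold over all genes (2 lower and 0 higher at an unadjusted p under 0.05, median -0.06). The mineralocorticoid receptor gene Nr3c2, which is neither a supply nor a clearance gene, is counted in this list (0.29 ± 0.29). Serpina6, the gene of the plasma carrier transcortin, read 8451, 12046 and 10159.8 against 8585, 7307 and 6899, with overlap (-0.42 ± 0.15). The efflux pump gene Abcb1a had a difference of -1.18 ± 0.25 (limma adjusted p = 0.125), Abcb1b of 0.63 ± 0.53 and the 5β-reductase gene Akr1d1 of -0.23 ± 0.22. Of 16 measured genes around phosphoinositide 3-kinase, SGK and the EGF receptor 0 passed (2 lower and 0 higher at an unadjusted p under 0.05 in limma, median -0.05, against 932 lower and 669 higher of all 13312 genes), with the insulin receptor gene Insr at -0.40 ± 0.14, Akt1 at -0.34 ± 0.14, the EGF receptor gene Egfr at 0.74 ± 0.42 and the catalytic subunit gene Pik3ca at -0.26 ± 0.18. With the mean of a gene's probe sets the signs of Akt1, Pik3ca and the coactivator gene Ncoa1 were positive.

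**Figure D4:**
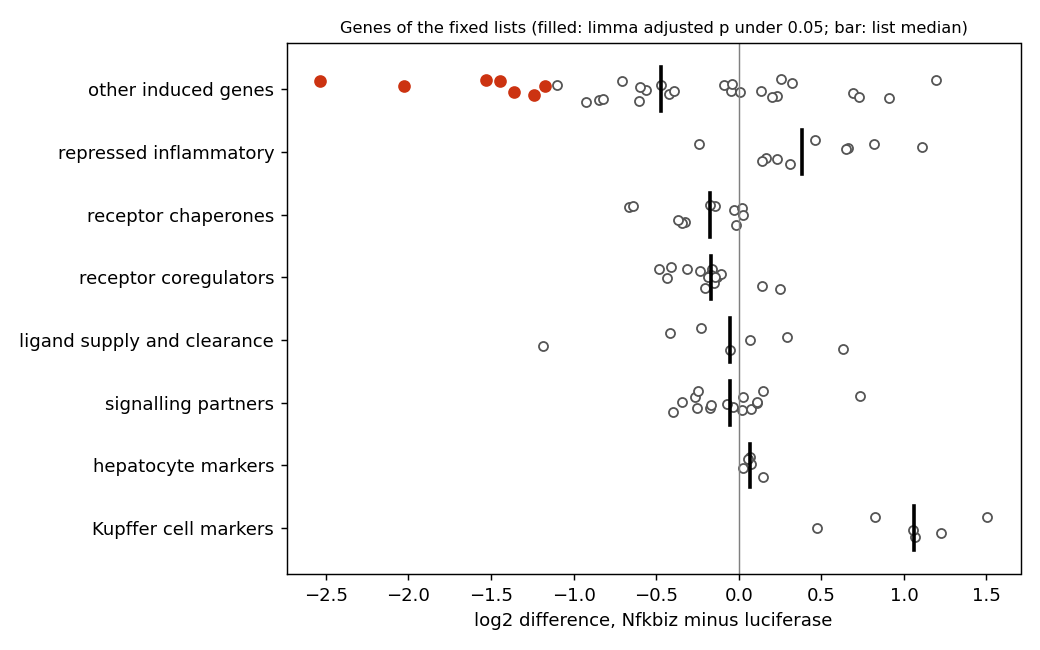
Log2 difference, Nfkbiz minus luciferase (horizontal axis), of each tested gene of 6 pathway lists and 2 marker lists, with a black bar at the list median and filled points for limma adjusted p under 0.05. The 7 filled points all belong to the other induced genes, at -2.53 to -1.17, and all 6 Kupffer cell markers lie to the right of 0, with a median of 1.06.

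The genes whose pattern over the 6 arrays was most like that of Tsc22d3 (Pearson r of log2 intensity on 1420772_a_at) were Zfp532 (r = 0.988), Lurap1l (0.986) and Arid5b (0.986). With group means removed the values were 0.912, 0.984 and 0.899. In all, 159 genes correlated with Tsc22d3 above 0.9, so this likeness sets few genes apart with 6 arrays. Arid5b, a DNA-binding factor gene, read 1127, 1442 and 1304 on the luciferase and 518, 724 and 643 on the Nfkbiz arrays (-1.05 ± 0.17). Lurap1l had a difference of -0.52 ± 0.15 and Zfp532 of -0.38 ± 0.21. A difference between the groups is built into likeness to Tsc22d3, so these values are a description, without a test.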

How the data were processed

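The authors deposited MAS5 intensities, on a linear scale as judged from the values. MAS5 is named, without a version, in the submitters' processing notes. The mean of each array's values without the lowest and highest 2% was 495.4 to 496.5, and the median 78.2 to 95.2. Precision is limited by the number of arrays. Gene symbols came from GEO's annotation of the platform: 34945 had 1 symbol, 932 had several and 9160 were not listed. Intensities were log2-transformed without pseudocount, and the lowest 40% of probe sets by mean (below an intensity of 47.4) were left out. limma 3.58.1 in R 4.3.3 (lmFit, eBayes with intensity trend, two-sided, Benjamini-Hochberg, threshold 0.05) was fitted over 27022 probe sets and, with the brightest probe set per gene, over 13312 genes. It was tested on simulated data. The members and lists were chosen with earlier results of these data known. Named were all member probe sets, Nfkbiz, each list's genes past the threshold or otherwise the 4 with the smallest p, and the 3 genes most like Tsc22d3. Mt1, Pdk4 and Bcl6 were named after their values were seen. The T and NK cell markers and Nr3c2 were named outside this rule. Genes of the lists without a probe set of their own symbol are not analysed here. Replicate numbers are not stated to pair arrays. Deviations of arrays with the same number correlated at -0.03, 0.07 and 0.01, too few values to settle whether arrays were paired. Upstream sequences came from RefSeq, and figures were drawn with matplotlib 3.10.9.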

Additional observations from a re-analysis of the deposited data

How the results depend on the processing

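Alternatives numbered 15 at probe set and 17 at gene level. The median difference of the member probe sets stayed negative in all 15, from -0.48 to -0.22. Leaving out 1 array gave 5 to 21 probe sets lower and 3 to 12 higher (14 and 5 with all arrays), 0 to 1 member probe sets lower, 4 to 12 genes lower and 4 to 9 higher (21 and 9), 0 to 1 member genes and 2 to 5 other induced genes lower. Without the variance trend 0 probe sets, genes, member genes or other induced genes passed in either direction. Median centring gave 9 probe sets lower, 0 member genes and 4 other induced genes. Quantile normalization gave 2 member probe sets, 2 member genes and 1 chaperone lower, and loess 1, 2 and 1. A pseudocount of 16 gave 23 probe sets lower, 1 of them a member. Leaving out the lowest 60% gave 34 lower with 2 members, 12 higher and 2 member genes. Array weights gave 57 lower with 3 members and 20 higher, and 40 genes lower, 22 higher and 2 members. The mean of probe sets gave 9 genes lower, 4 higher, 0 members and 4 other induced genes, and the most variable probe set 6, 4, 0 and 3. The cause of these shifts was not tested. The replicate block, on numbers not stated to pair the arrays, gave 22 probe sets lower, 2 of them members. It kept the other counts within 1.5 times. By its deviations, luciferase array 1 correlated best with the third Nfkbiz array (0.09), not with its own number. Luciferase arrays 2 and 3 correlated best with their own numbers (0.07 and 0.01), and all these values were small. The sign turned for uncalled genes: with the mean of probe sets Fkbp4 was 0.25, Ncoa1 0.048, Akt1 0.24, Pik3ca 0.010 and Mt1 -0.65, with the most variable probe set Fkbp4 was 1.58, Akt1 0.60 and Mt1 -2.21, and Akr1d1 ran from -0.46 to 0.014 with single arrays left out. With 3 arrays per group, the differences of Hsd11b1, Sgk1 and some probe sets of Nr3c1, Fkbp5 and Pik3r1 changed sign when 1 array was left out.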
